A study of Mus musculus with 4 samples.

Results

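The genes described are the 9 core members of transforming growth factor beta (TGF-β) signalling: the ligands *Tgfb1*, *Tgfb2* and *Tgfb3*, the receptors *Tgfbr1*, *Tgfbr2* and *Tgfbr3*, and the signal carriers *Smad2*, *Smad3* and *Smad4*. They were taken by name from the 46517 genes of the count tables, and all 9 were found. TGF-β ligands are secreted in a latent form and, once released, bind the type II receptor *Tgfbr2*, which recruits and activates the type I receptor *Tgfbr1*. The activated receptor phosphorylates *Smad2* and *Smad3*, which enter the nucleus with *Smad4* and regulate transcription, while the coreceptor *Tgfbr3* (betaglycan) presents ligand, *Tgfb2* above all. In blood vessels the pathway is known for its part in the exchange between endothelial cells and the mural cells (pericytes and smooth muscle cells) that surround them.

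Blood vascular endothelial cells (BECs) of the ear dermis came from adult, female, wild-type C57Bl/6 mice, aged 12 to 26 weeks per the labels (the study's methods give a younger range that overlaps it), with no treatment. CD31+/CD45-/Lyve1- cells were sorted singly into 4 plates of 384 wells, 2 plates (A and B) for each of 2 replicates, and sequenced by Smart-seq2, which counts reads without molecular identifiers. The design text names pools of 6 mice, and whether both replicates share a pool was not settled. The p-values therefore measure only how class differences varied between these replicates. The 4 plates held 74739095, 63091443, 31864976 and 35546726 reads in genes, and the median well held 161838.5 reads in replicate 1 and 41219.5 in replicate 2.

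Wells were compared in 4 classes. Endothelial wells, in which the lymphatic genes *Prox1* and *Lyve1*, the leukocyte gene *Ptprc* and the mural genes *Kcnj8* and *Pdgfrb* each stayed under 100 CPM (CPM, the reads of a gene scaled to the same total in every well), were clustered without the TGF-β genes and named from marker genes. They gave 29 and 32 artery-like wells in replicates 1 and 2, 113 and 26 capillary-like wells, and 119 and 120 vein-like wells. Mural-mixed wells, with endothelial reads and at least 100 CPM of the mural genes *Pdgfrb* or *Kcnj8*, numbered 407 and 53. A further 77 and 185 endothelial wells fell in 2 clusters that could not be named and stayed out of the comparisons. The mural-mixed wells of the replicates were unlike each other: the 8 endothelial markers summed to 5393 CPM in replicate 1 and 1555 CPM in replicate 2, against 6360 to 8933 CPM in the endothelial classes, and the 13 mural markers summed to 8562 and 8137 CPM, against 409 to 1687 CPM. The 7 fibroblast markers also stood higher there, at 1626 and 2098 CPM against 91.3 to 343 CPM. The endothelial classes also differed between replicates: the 13 capillary markers summed to 16974 and 7989 CPM in capillary-like wells and to 11619 and 2318 CPM in artery-like wells, so that artery-like wells of replicate 1 held more than capillary-like wells of replicate 2. Whether a mural-mixed well held a mural cell, a doublet or an endothelial cell with mural RNA cannot be told apart.

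Of the members, 5 have a promoter window of 300 bases (250 before to 50 after the start of transcription) in RefSeq's table for GRCm38.p6. Those of *Tgfb2*, *Tgfbr1* and *Tgfbr2* are printed, as a ligand and the 2 signalling receptors whose levels are compared next, 5′ to 3′ on the gene's strand. Capitals mark matches on either strand to GGGCGG (a GC box) and CAGAC (a Smad-binding element). CCGGAA (an ETS core), also searched on both strands, had no match in them, and no match of one motif overlapped another. The *Tgfb2* window lies at chr1:186705940-186706239 (minus strand), that of *Tgfbr1* at chr4:47352972-47353271 (plus strand) and that of *Tgfbr2* at chr9:116175314-116175613 (minus strand).
Tgfb2: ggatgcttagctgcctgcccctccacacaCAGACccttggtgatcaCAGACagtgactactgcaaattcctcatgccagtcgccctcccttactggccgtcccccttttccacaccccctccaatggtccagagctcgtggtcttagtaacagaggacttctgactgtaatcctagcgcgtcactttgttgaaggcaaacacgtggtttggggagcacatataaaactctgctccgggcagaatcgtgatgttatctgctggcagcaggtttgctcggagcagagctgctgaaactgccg
Tgfbr1: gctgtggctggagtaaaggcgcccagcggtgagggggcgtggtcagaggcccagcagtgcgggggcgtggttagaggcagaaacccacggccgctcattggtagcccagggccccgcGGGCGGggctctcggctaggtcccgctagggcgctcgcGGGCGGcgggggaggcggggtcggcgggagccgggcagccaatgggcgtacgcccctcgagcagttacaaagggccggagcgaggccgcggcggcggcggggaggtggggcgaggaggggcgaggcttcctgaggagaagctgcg
Tgfbr2: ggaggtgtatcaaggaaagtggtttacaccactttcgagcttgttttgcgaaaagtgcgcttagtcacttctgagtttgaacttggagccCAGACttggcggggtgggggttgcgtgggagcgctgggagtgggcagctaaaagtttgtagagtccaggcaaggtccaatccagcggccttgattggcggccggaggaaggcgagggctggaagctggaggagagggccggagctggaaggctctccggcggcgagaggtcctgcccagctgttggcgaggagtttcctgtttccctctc
The *Tgfbr1* window held 2 GC boxes and 34 CpG dinucleotides at 74.7% GC, *Tgfbr2* held 1 Smad-binding element and 15 CpG at 59.0% GC, and *Tgfb2* held 2 Smad-binding elements and 10 CpG at 54.3% GC. Of all 32851 promoter windows, 35.7% held the GC box, 14.9% the ETS core and 49.6% the Smad-binding element, and the median window held 7 CpG at 52.7% GC. The matches are letters in these windows and describe no binding.

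Per kilobase of exon, *Tgfbr2* was the highest member in artery-like, vein-like and mural-mixed wells, at 71.6 ± 16.7 CPM per kb (SD, n = 2 replicates), 53.7 ± 0.07 and 29.7 ± 11.03. In capillary-like wells *Tgfbr2* (27.2 ± 4.21 CPM per kb) and *Tgfbr3* (28.5 ± 12.8) did not differ beyond their spread. The partner receptor *Tgfbr1* stood far lower in every class, at 0.20 ± 0.05 CPM per kb in artery-like, 4.06 ± 0.43 in capillary-like, 4.63 ± 0.95 in vein-like and 4.11 ± 1.80 in mural-mixed wells. Among ligands *Tgfb2* led in every class by its mean, with 16.5 ± 9.40 CPM per kb in artery-like and 11.9 ± 0.96 in mural-mixed wells, and *Tgfb1* stayed at 0.28 to 0.96 CPM per kb.

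**Figure D1:**
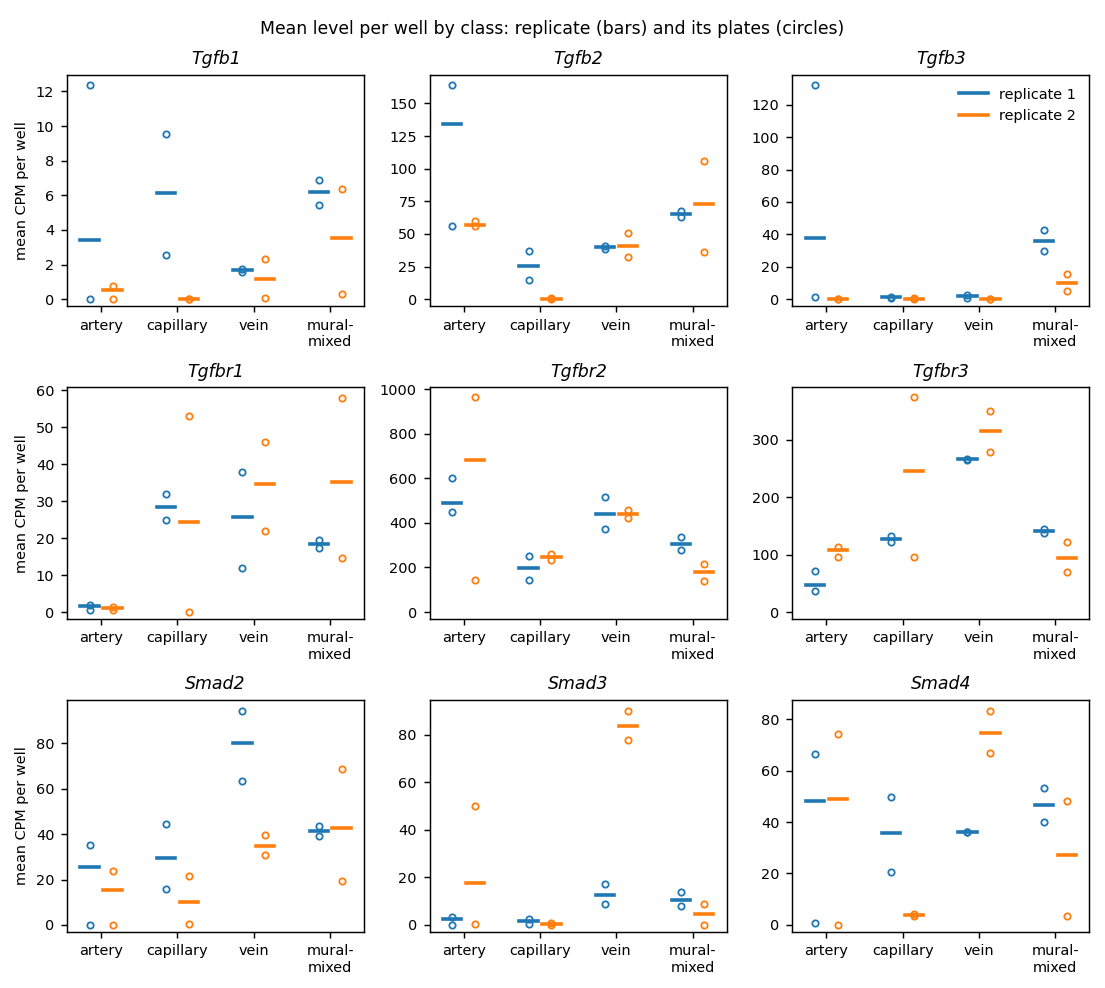
Mean CPM per well (vertical axis, linear, a scale for each gene) of the 9 members in artery-like, capillary-like, vein-like and mural-mixed wells. Bars are replicates and circles the 2 plates of each replicate. *Tgfbr1* sits at 1.54 and 1.11 CPM in artery-like wells, under the bars of every other class, while single plates set several bars, such as *Tgfb3* in artery-like wells of replicate 1.

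Among receptors, *Tgfbr2*, the type II receptor that binds ligand, averaged 490 and 683 CPM per well in artery-like wells of replicates 1 and 2, 439 and 440 CPM in vein-like wells, 198 and 247 CPM in capillary-like wells, and 307 and 180 CPM in mural-mixed wells. The capillary-like replicates lay below both artery-like and both vein-like replicates. A single well gave 50.8% of the capillary-like sum in replicate 2, and with scran's size factors that replicate stood at 419 CPM, against 462 CPM in vein-like wells of replicate 1. By plate, the artery-like values ran from 142 to 966 CPM and overlapped the capillary-like range of 145 to 259 CPM, whereas the vein-like plates, at 373 to 516 CPM, did not. A read of *Tgfbr2* was found in 87.6% and 69.2% of capillary-like wells, 94.96% and 77.5% of vein-like wells and 75.9% and 78.1% of artery-like wells.

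Wells differed in depth, so shares were also taken after drawing 20000 reads from each well, leaving out shallower wells. At that depth *Tgfbr2* was read in 83.2% (exact 95% interval 75.2 to 89.4) and 65.4% (55.6 to 74.4) of vein-like wells, and in 46.9% (37.5 to 56.5) and 50.0% (27.2 to 72.8) of capillary-like wells. Artery-like wells lay between, at 65.5% and 60.0%, with intervals that overlapped both. Mural-mixed wells stood at 70.2% in replicate 1 and 40.6% in replicate 2. These intervals cover counting error only.

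*Tgfbr3*, the coreceptor, averaged 266 and 316 CPM in vein-like wells, 127 and 246 CPM in capillary-like wells, 46.7 and 107 CPM in artery-like wells, and 141 and 94.6 CPM in mural-mixed wells. By mean CPM per well, both vein-like replicates were above every other class, and both artery-like replicates were below every capillary-like replicate. Neither order held in the summed counts, where capillary-like wells of replicate 2 stood at 322 CPM against 264 and 316 CPM in vein-like wells, and artery-like wells of replicate 2 at 156 CPM against 114 CPM in capillary-like wells of replicate 1. At 20000 reads it was read in 66.4% (57.2 to 74.8) and 57.9% (48.0 to 67.4) of vein-like wells against 24.1% (10.3 to 43.5) and 23.3% (9.93 to 42.3) of artery-like wells. The artery-like and vein-like intervals did not overlap in either replicate. Capillary-like wells stood at 38.9% (29.9 to 48.6) and 55.0% (31.5 to 76.9).

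*Tgfbr1*, the type I receptor that carries the kinase signal to the Smads, had 6 and 5 reads in all artery-like wells, a mean of 1.54 and 1.11 CPM. It averaged 28.5 and 24.5 CPM in capillary-like wells, 25.8 and 34.6 CPM in vein-like wells, and 18.5 and 35.1 CPM in mural-mixed wells. No artery-like well reached 100 CPM, against 8 and 2 capillary-like, 10 and 10 vein-like and 25 and 4 mural-mixed wells. A single well gave 70.6% of the capillary-like and 70.3% of the mural-mixed sum of CPM in replicate 2, and 1 of the 4 capillary-like plates had no read. At 20000 reads it was seen in 2 of 29 and 0 of 30 artery-like wells, the latter allowing a share of up to 10.0% by a limit of 3 wells, in 18.5% (12.0 to 26.6) and 12.1% (6.63 to 19.9) of vein-like wells and in 15.9% (9.72 to 24.0) and 10.0% (1.23 to 31.7) of capillary-like wells. The exact intervals of artery-like wells were 0.85 to 22.8 and 0 to 11.6. Within each replicate they overlapped those of vein-like and capillary-like wells. The artery-like share was the lowest of these 3 classes in both replicates, a difference that was not tested.

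Both signalling receptors were read in the same well in 10.3% and 6.25% of artery-like, 23.9% and 7.69% of capillary-like, 37.0% and 24.2% of vein-like and 29.7% and 13.2% of mural-mixed wells. *Tgfbr2* without a read of *Tgfbr1* was the more frequent finding in every class, from 35.8% of mural-mixed wells in replicate 2 to 71.9% of artery-like wells in replicate 2. At 20000 reads the share with both receptors was 16.8% and 7.48% in vein-like, 12.5% and 9.38% in mural-mixed, 7.97% and 5.0% in capillary-like and 6.90% and 0% in artery-like wells, so that vein-like and mural-mixed wells of replicate 2 changed places. A well with no read of *Tgfbr1* may still express it, since its level was near that of single reads.

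**Figure D2:**
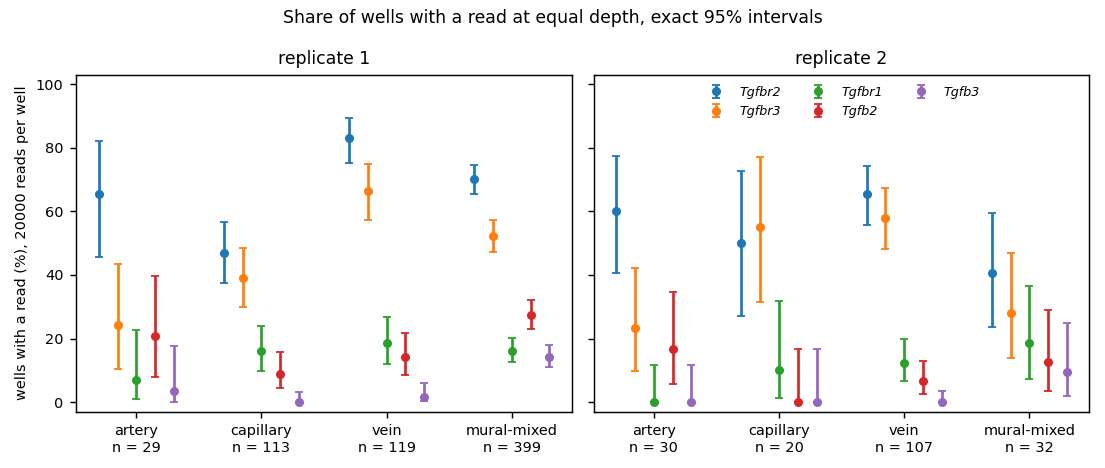
Share of wells with a read (vertical axis, percent) after drawing 20000 reads per well, for 5 members in 4 classes, by replicate; bars are exact 95% intervals and n the wells deep enough. *Tgfbr3* is at 66.4% and 57.9% in vein-like and at 24.1% and 23.3% in artery-like wells, and *Tgfb3* is highest in mural-mixed wells, at 14.3% and 9.38%.

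Among ligands, *Tgfb2* averaged 134 and 57.2 CPM in artery-like wells, 65.1 and 73.0 CPM in mural-mixed wells, 39.8 and 40.9 CPM in vein-like wells, and 25.5 and 0.51 CPM in capillary-like wells. The replicate order was thus artery-like or mural-mixed, then vein-like, then capillary-like, and the first pair overlapped. By plate, the mural-mixed values (36.0 to 106 CPM) overlapped the vein-like ones (32.1 to 50.7 CPM), which overlapped the capillary-like ones (0 to 37.3 CPM). The artery-like plates, at 55.8 to 164 CPM, lay above the vein-like plates. Expression was concentrated in few wells: 5 and 4 artery-like wells reached 100 CPM, and 1 of them gave 42.5% and 34.3% of the sum. Among mural-mixed wells of replicate 1, 85 of 407 reached 100 CPM, and no well gave more than 3.71% of the sum. In replicate 2, 5 of 53 mural-mixed wells did, and 1 well gave 39.9% of the sum, much as in artery-like wells.

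*Tgfb3* averaged 36.0 and 9.78 CPM in mural-mixed wells and was read in 27.3% and 13.2% of them. The endothelial wells that could not be named averaged 13.1 and 7.23 CPM, with a read in 18.2% and 5.41%. These reads lay mostly in 1 of the 2 unnamed clusters, at 23.5 and 13.6 CPM against 0.50 and 0.68 CPM in the other, and in that cluster 8 of 13 mural, 4 of 7 fibroblast and 5 of 6 lymphatic markers stood higher by the limit used to name clusters, against 0 of 8 endothelial markers; their part in the level was not tested. Vein-like wells averaged 1.90 and 0.14 CPM and capillary-like wells 1.13 and 0.24 CPM. Artery-like wells averaged 37.5 CPM in replicate 1, of which a single well at 1051 CPM gave 96.7%, and had no read in replicate 2, where 0 of 32 wells allow a share of up to 9.38% by the same limit. At 20000 reads *Tgfb3* was seen in 14.3% (11.003 to 18.1) of mural-mixed wells of replicate 1 against 1.68% (0.20 to 5.94) of vein-like wells. In replicate 2 the shares were 9.38% (1.98 to 25.0) and 0% (0 to 3.39), and these intervals overlapped. In the 39 wells of replicate 2 with as much mural RNA and a read of at most 1 of *Pecam1*, *Cdh5* and *Kdr*, it averaged 0.24 CPM.

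*Tgfb1*, the ligand most often studied, averaged 0 to 6.19 CPM over the 8 combinations of class and replicate and was read in 10.9% of wells at most. The mural-mixed values (6.19 and 3.51 CPM) lay above those of artery-like (3.41 and 0.52) and vein-like wells (1.67 and 1.15) and overlapped the capillary-like ones (6.12 and 0). A single well gave 48.7% and 95.6% of the mural-mixed sums. In replicate 2, 0 of 26 capillary-like wells had a read, allowing up to 11.5% by that limit.

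Among signal carriers, *Smad2*, which *Tgfbr1* phosphorylates, averaged 80.0 and 35.0 CPM in vein-like, 41.4 and 42.6 CPM in mural-mixed, 29.7 and 10.2 CPM in capillary-like, and 25.6 and 15.6 CPM in artery-like wells. By these means the vein-like and mural-mixed replicates lay above those of the other classes, but the plates overlapped, with 30.7 to 94.2 CPM in vein-like, 19.3 to 68.8 in mural-mixed, 0.34 to 44.3 in capillary-like and 0 to 35.3 in artery-like wells. A single well gave 61.6% and 63.2% of the artery-like and 45.7% and 98.2% of the capillary-like sums of *Smad2*. *Smad3*, a second receptor substrate, averaged 12.6 and 83.5 CPM in vein-like, 10.6 and 4.77 CPM in mural-mixed, 2.29 and 17.4 CPM in artery-like, and 1.48 and 0.48 CPM in capillary-like wells. The vein-like value of replicate 2 came from 14.2% of wells, 11 of which reached 100 CPM. *Smad4*, the shared partner, averaged 48.3 and 48.8 CPM in artery-like, 36.1 and 74.5 CPM in vein-like, 46.7 and 27.3 CPM in mural-mixed, and 35.6 and 3.97 CPM in capillary-like wells. The artery-like replicates lay above the capillary-like and mural-mixed ones, within the range of the vein-like ones (in the summed counts the mural-mixed value of replicate 1, 51.2 CPM, was above the artery-like 47.0), the artery-like plates ran from 0 to 74.3 CPM, and 1 well gave 57.4% and 58.1% of their sums. *Smad4* was read together with *Smad2* or *Smad3* in 0 to 19.9% of the wells of a class and replicate.

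The comparisons were tested on counts summed per class and replicate, 8 sums in all, with edgeR's quasi-likelihood test and the replicate as a block. In mural-mixed wells against the mean of the endothelial classes, 62 of 17155 genes (0.361%) passed a Benjamini-Hochberg adjusted p of 0.05, and none of the 9 members did; 1557 genes (9.08%) had p under 0.05 before adjustment, DESeq2 called 878 and limma 89. In artery-like against vein-like wells and in capillary-like wells against the mean of both, edgeR called 0 genes (0%), members included; 1107 (6.45%) and 803 genes (4.68%) had p under 0.05 before adjustment, the Wald test of DESeq2 called 520 and 269, and limma on mean CPM called 0 and 0. Members with an unadjusted edgeR p under 0.05 numbered 1, 2 and 1 in these 3 comparisons, DESeq2 called 1, 1 and 0 of them, and limma 0, 0 and 0. Over all genes the median log2 fold change was 0.171, -0.310 and -0.123, and that of the 9 members 1.02, 0.56 and -1.11. The spread that remained between sums after fitting class and replicate was large, with a common dispersion of 0.845, so that a missed threshold does not show equal levels.

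**Figure D3:**
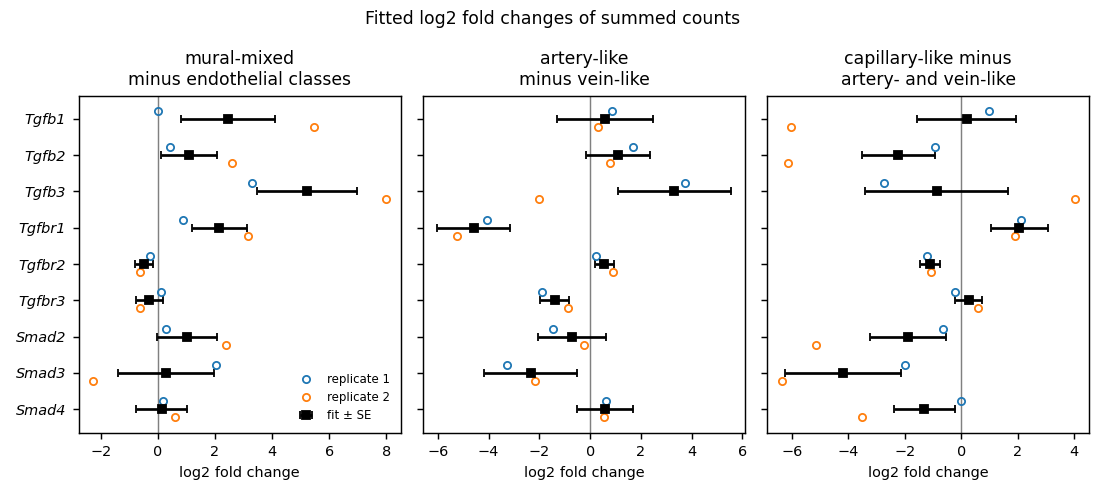
Log2 fold changes (horizontal axis) of the 9 members in 3 comparisons: squares with bars are the edgeR fit ± SE, circles the value within each replicate. *Tgfb3* is at 5.23 in mural-mixed wells, *Tgfbr1* at -4.59 in artery-like against vein-like wells and *Tgfbr2* at -1.11 in capillary-like wells, each with both replicates on 1 side of 0, and no member passed the adjusted threshold.

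Against the endothelial classes, *Tgfb3* had the greatest difference of the members in mural-mixed wells, a log2 fold change of 5.23 (SE 1.76, edgeR adjusted p = 0.300), at 3.30 within replicate 1 and 8.0 within replicate 2, where the endothelial sums held 2 reads. DESeq2 gave 5.36 (adjusted p = 0.00479). *Tgfbr1* stood at 2.15 (SE 0.96), *Tgfb2* at 1.09 (SE 0.99) and *Smad2* at 1.02 (SE 1.06), all above 0 within both replicates and none called. The mural-mixed levels of *Tgfbr1*, 18.5 and 35.1 CPM, overlapped those of capillary-like and vein-like wells and lay above the artery-like ones alone. *Tgfbr2* stood at -0.49 (SE 0.32), also on the same side in both replicates, and *Tgfbr3* at -0.30 (SE 0.47), on opposite sides. *Tgfb1* stood at 2.46 (SE 1.66), with -0.0027 and 5.48 within the replicates, *Smad3* at 0.29 (SE 1.67), with 2.05 and -2.27, and *Smad4* at 0.14 (SE 0.89). In replicate 2 the capillary-like sum held no read of *Tgfb1* and 1 of *Smad3*.

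Between artery-like and vein-like wells, *Tgfbr1* had a log2 fold change of -4.59 (SE 1.43, edgeR adjusted p = 0.760), at -4.07 and -5.26 within the replicates. DESeq2 called it at -4.51 (adjusted p = 0.00395). With other rules for keeping and classing wells, which changed the wells of every class, it was -0.28 at a limit of 10 CPM, -0.38 with all 3 BEC genes required and -0.69 with classes from marker scores, none of them called, and the cause was not tested. *Tgfbr3* stood at -1.40 (SE 0.57, edgeR adjusted p = 0.760) with -1.89 and -0.86, whereas *Tgfbr2* stood at 0.56 (SE 0.38) with 0.23 and 0.89. The 3 receptors did not share a sign, except on plate A alone, where *Tgfbr2* stood at -0.33, and none of their differences passed edgeR's threshold. The ligands stood at 0.59 (SE 1.90) for *Tgfb1*, 1.11 (SE 1.26) for *Tgfb2* and 3.32 (SE 2.22) for *Tgfb3*. The replicates differed in sign for *Tgfb3*, at 3.73 and -2.02. The Smads stood at -0.72 (SE 1.34) for *Smad2*, -2.35 (SE 1.82) for *Smad3* and 0.57 (SE 1.11) for *Smad4*.

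Capillary-like wells had less *Tgfbr2* than artery-like and vein-like wells, averaged, by their values, with a log2 fold change of -1.11 (SE 0.34, edgeR adjusted p = 0.882) and -1.20 and -1.09 within the replicates. *Smad3* stood at -4.20 (SE 2.04), *Tgfb2* at -2.24 (SE 1.29) and *Smad2* at -1.89 (SE 1.34), each below 0 in both replicates. In replicate 2, however, the capillary-like sum held only 1 read of *Smad3*, 2 of *Tgfb2* and 2 of *Smad2*. *Tgfbr1* stood at 2.05 (SE 1.02), above 0 in both replicates. The other members stood at 0.20 (SE 1.75) for *Tgfb1*, -0.87 (SE 2.54) for *Tgfb3*, 0.25 (SE 0.48) for *Tgfbr3* and -1.31 (SE 1.09) for *Smad4*. The replicates differed in sign for each of these, at 0.995 and -6.03, -2.73 and 4.02, -0.23 and 0.61, and 0.0031 and -3.53 in the same order. The comparisons share the artery-like and vein-like sums, so their values are not independent.

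Of 56 further pathway genes in 5 lists, 1 was called in any comparison, in mural-mixed wells, where 0.361% of all genes tested were called. *Timp3*, a TGF-β target that inhibits matrix metalloproteinases, was higher in mural-mixed wells by a log2 fold change of 1.57 (SE 0.24, edgeR adjusted p = 0.0405), 1.11 and 2.06 within the replicates, at 2301 and 2139 CPM against 592 to 1155 CPM in the endothelial classes; it lost the call in 11 of 16 alternatives (adjusted p from 0.000162 to 0.411), with log2 fold changes of 1.41 to 1.75. The 13 mural markers stood higher in the same wells, as given above, and their part in the result was not tested. By list, the genes called in mural-mixed wells were 1 of 11 tested targets, 0 of 11 genes of latency and activation, 0 of 9 other receptors and coreceptors, 0 of 11 adaptors and cofactors and 0 of 12 inhibitors, with 3, 4, 1, 1 and 0 at an unadjusted p under 0.05 (9.08% of all genes). In the same order these were 5, 1, 0, 0 and 2 in artery-like against vein-like wells (6.45% of all genes) and 4, 1, 1, 1 and 0 in capillary-like wells (4.68%), with none called.

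The endothelial coreceptor *Eng* (endoglin) averaged 2252, 2368 and 2418 CPM in artery-, capillary- and vein-like wells of replicate 1 and 766, 1149 and 1687 CPM in replicate 2, against 1310 and 247 CPM in mural-mixed wells. Its difference there was -1.46 (SE 0.32, edgeR adjusted p = 0.116), at -0.96 and -1.95 within the replicates, and edgeR called it without the filter on low counts, with thinned wells and with sums per plate, 3 of 16 alternatives (adjusted p over all 16 from 0.00344 to 0.988). *Acvrl1* (ALK1), the endothelial type I receptor for BMP9 and BMP10, averaged 364 and 186 CPM in artery-like, 380 and 36.0 CPM in capillary-like, 116 and 144 CPM in vein-like and 142 and 56.6 CPM in mural-mixed wells. Per kilobase it stood at 64.5 ± 29.5 CPM in artery-like wells, against 0.20 for *Tgfbr1*. The inhibitor *Smad7*, itself induced by the pathway, averaged 80.4 and 15.6 CPM in artery-like and 14.8 and 8.15 CPM in vein-like wells, and its capillary-like values of 44.2 and 0.37 CPM overlapped those of both classes.

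Within the 407 mural-mixed wells of replicate 1, the members were also described in 3 bins of equal size by the higher of the *Pdgfrb* and *Kcnj8* levels. *Tgfb2* averaged 40.2, 69.1 and 86.0 CPM from the lowest to the highest bin, *Tgfb1* 1.68, 5.15 and 11.7 CPM and *Tgfbr2* 335, 312 and 275 CPM. *Tgfb3*, at 37.4, 26.6 and 44.0 CPM, and *Tgfbr1*, at 15.2, 22.1 and 18.3 CPM, had no such order. The rise of *Tgfb1* rested on a single well at 1225 CPM in the highest bin: with the highest well of each bin left out, a choice made after seeing the data, *Tgfb1* averaged 0.77, 3.71 and 2.74 CPM, whereas *Tgfb2* (35.1, 65.2 and 79.3 CPM) and *Tgfbr2* (325, 301 and 263 CPM) kept their order. *Pecam1*, an endothelial marker, averaged 2215, 2213 and 1643 CPM over the same bins. Other endothelial genes were not at their lowest in the highest bin. *Cdh5* averaged 380, 294 and 338 CPM, *Eng* 1263, 1359 and 1306 CPM and *Acvrl1* 144, 127 and 156 CPM. At 20000 reads *Tgfbr2* was read in 71.1%, 77.0% and 62.5% of wells and *Tgfb1* in 1.56%, 3.70% and 2.94%, neither in the order of its level. *Tgfb2* was read in 21.9%, 30.4% and 29.4% of wells, so its share of wells differed between the lowest bin and the other two more than between those. Wells of a replicate are not replicates of a condition, and no test was made.

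**Figure D4:**
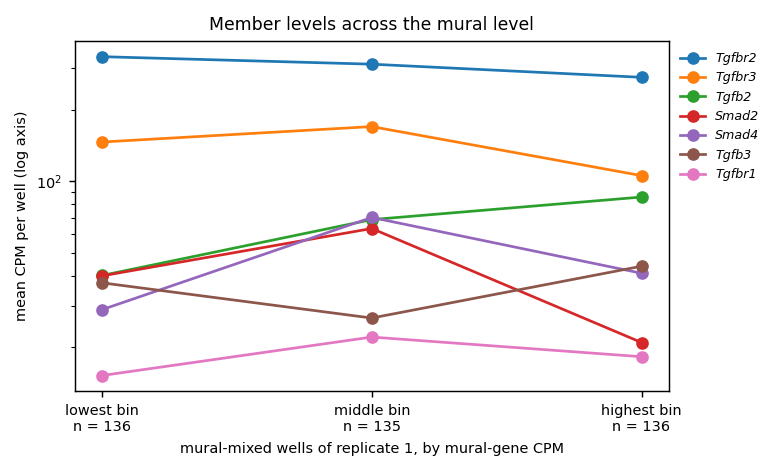
Mean CPM per well (vertical axis, log scale) of 7 members in 3 bins of the mural-mixed wells of replicate 1, by mural-gene level (136, 135 and 136 wells). *Tgfb2* goes from 40.2 to 86.0 CPM and *Tgfbr2* from 335 to 275 CPM.

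The genes most like each member over the 8 sums, by Pearson's r of log2 CPM, were *Snapc2* (r = 0.992) for *Tgfb2*, *Ctps2* (0.991) for *Tgfbr1*, *R3hcc1l* (0.973) for *Tgfbr2*, *Pam* (0.975) for *Tgfbr3*, *Tmco3* (0.989) for *Smad2*, *Hunk* (0.981) for *Smad3* and *Slc23a2* (0.993) for *Smad4*. They were picked from 17155 genes over 8 points that share libraries, and no member was among another's 3 nearest genes.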

How the data were processed

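Ear dermal BECs were analysed, 1536 wells on 4 plates in 2 replicates. The authors sequenced Smart-seq2 libraries as single 50-base reads, and the submitters' processing notes name TopHat2 2.1.1, SAMtools 0.1.18 and Subread 1.4.6-p5 with mm10. The authors deposited unnormalised read counts of every gene in every well. The annotation release is not given in the sources used here. Reads without molecular identifiers are not independent molecules. The 92 spike-in sequences were left out, and 46005 of 46517 gene identifiers matched GENCODE vM21 (GRCm38).

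Wells were kept with at least 600 counts, 500 to 8000 genes and reads of 2 or more of the BEC genes *Kdr*, *Cdh5* and *Pecam1*. Endothelial wells were clustered (scran 1.30.0, 1000 variable genes, 15 components, 15 neighbours, leidenalg 0.10.2 at resolution 0.6) and clusters named from at least 3 markers that were 1.25 times higher on average and above the other wells in both replicates. Doublets were not called. No well was shared between plates. Counts summed per class and replicate (at least 10 counts in 2 sums) entered edgeR 4.0.16 (quasi-likelihood test, TMM scaling, Benjamini-Hochberg over 17155 genes, 3 residual degrees of freedom), and alternatives used DESeq2 1.42.0 and limma 3.58.1 (log2, pseudocount of 1). The replicate was a block because its classes come from the same sorted cells; deviations of same-replicate sums correlated at 0.0672 to 0.141. The code was tested on simulated data. R 4.3.3 and Python 3.11.15 were used.

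The members, lists, limit of 100 CPM and tests were chosen with earlier results of these data known. The rule named all members, up to 8 called pathway genes per comparison with 1 sign in both replicates, *Eng*, *Acvrl1* and *Smad7*, and the genes most like each member with at least 10 CPM. A further gene of the rule is not reported here. Exact intervals and limits for a count of 0 cover counting error only. The alternatives are given in the closing section.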

Additional observations from a re-analysis of the deposited data

Results flagged for a closer look

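Among 36 combinations of member and class, the mean CPM of 1 of the 4 plates stood apart from the other 3 by Dixon's test in 7. The limit used flags about 1 in 20 for normally distributed values. Plate means set by single wells need not be so distributed, so the 7 cannot be weighed against that rate. In artery-like wells these were *Tgfb3* at 132 CPM on plate A of replicate 1 (8 wells, others 0 to 1.47), *Tgfb2* at 164 CPM on plate B of replicate 1 (21 wells, others 55.8 to 59.7), *Smad3* at 50.1 CPM on plate A of replicate 2 (11 wells, others 0 to 3.16) and *Tgfb1* at 12.4 CPM on plate A of replicate 1 (8 wells, others 0 to 0.79). *Tgfbr3* stood apart at 374 CPM in capillary-like wells (14 wells, others 96.4 to 132) and at 349 CPM in vein-like wells (63 wells, others 265 to 279), both on plate B of replicate 2. *Tgfbr1* did so at 57.9 CPM in mural-mixed wells on plate A of replicate 2 (25 wells, others 14.8 to 19.5). All 7 were the highest plate. A single well gave 96.7% of the summed *Tgfb3* CPM of artery-like wells in replicate 1 and 97.7% of that of *Smad3* in replicate 2.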

How the results depend on the processing

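The spread between 2 replicates, single wells with high counts and the shallow mural-mixed wells of replicate 2 limit these data. The 62 calls of mural-mixed wells became 878 with DESeq2's Wald test, 455 without the filter on low counts, 95 without the replicate block, 238 with thinned wells, 303 and 17 at limits of 10 and 300 CPM, 26 with all 3 BEC genes required, 96 with no upper limit on genes, 5 with classes from marker scores, 8 on plate B alone and 737 with sums per plate. The 0 calls of artery-like against vein-like wells became 520 with DESeq2, 15 without the filter, 10 with thinned wells, 6 at 10 CPM, 1 with no upper limit on genes, 1 with marker scores and 6 with sums per plate. The 0 calls of capillary-like wells became 269 with DESeq2, 3 without the filter, 1 at 10 CPM and 3 with all 3 BEC genes. By the rule on resolution, the clustering at 10 CPM ran at 1.5 and that with all 3 BEC genes at 1.0, and that with pathway genes kept at 0.8, in place of 0.6, so more than 1 choice changed. The replicate block changed the call of no member and of none of *Timp3*, *Eng*, *Acvrl1* and *Smad7*; it was not followed for the other genes named. The causes were not tested. Among members, *Tgfb3* in mural-mixed wells was called by DESeq2 and at 10 CPM, where replicate 1 kept 1 artery-like, 4 capillary-like and 8 vein-like wells (adjusted p over 16 alternatives 0.00479 to 0.768) and *Tgfbr1* in artery-like against vein-like wells by DESeq2 only (0.00395 to 1), with log2 fold changes of 2.92 to 10.6 and -5.27 to -0.28. *Tgfbr2* in capillary-like wells kept its sign in all 16, at -2.19 to -0.49.

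Of 592 log2 fold changes under the alternatives, 49 turned in sign, none of them called. Without the filter on low counts the sign turned in the capillary-like comparison *Eng* at -0.0078. Without the replicate block the sign turned in the mural-mixed comparison *Smad3* at -0.033. With limma on mean CPM the sign turned in the artery-like against vein-like comparison *Smad4* at -0.10. With wells thinned to 20000 reads the sign turned in the artery-like against vein-like comparison *Smad4* at -0.18. At a limit of 10 CPM the sign turned in the mural-mixed comparison *Tgfbr3* at 1.05, *Smad7* at 0.76, in the artery-like against vein-like comparison *Tgfb1* at -0.17, *Smad7* at -1.26, in the capillary-like comparison *Tgfbr3* at -0.66. At 300 CPM the sign turned in the artery-like against vein-like comparison *Tgfb1* at -0.92, in the capillary-like comparison *Tgfb3* at 0.35, *Acvrl1* at 0.035. With all 3 BEC genes required the sign turned in the mural-mixed comparison *Tgfb1* at -0.51, *Tgfbr1* at -0.021, *Smad2* at -0.97, *Smad7* at 0.17, in the artery-like against vein-like comparison *Smad4* at -1.39, *Smad7* at -1.45, in the capillary-like comparison *Tgfbr1* at -0.071, *Tgfbr3* at -0.81, *Eng* at -0.14. With no upper limit on genes the sign turned in the capillary-like comparison *Tgfbr3* at -0.25. With classes from marker scores the sign turned in the mural-mixed comparison *Smad4* at -0.021, *Smad7* at 0.34, in the artery-like against vein-like comparison *Tgfb1* at -0.30, in the capillary-like comparison *Tgfb2* at 0.027, *Tgfb3* at 2.72, *Tgfbr1* at -0.15, *Smad2* at 0.28, *Eng* at -0.063, *Acvrl1* at 0.31, *Smad7* at 1.07. With pathway genes kept in clustering the sign turned in the capillary-like comparison *Tgfb1* at -0.10, *Tgfbr3* at -0.0504. On plate A alone the sign turned in the mural-mixed comparison *Tgfb1* at -0.80, *Tgfbr3* at 0.27, *Smad3* at -0.49, *Smad7* at 0.46, in the artery-like against vein-like comparison *Tgfbr2* at -0.33, *Smad4* at -7.64, in the capillary-like comparison *Tgfb1* at -1.83, *Tgfbr3* at -0.40, *Smad2* at 4.34, *Smad4* at 1.65, *Smad7* at 0.81. On plate B alone the sign turned in the artery-like against vein-like comparison *Tgfb3* at -0.97, in the capillary-like comparison *Tgfb3* at 1.43. With sums per plate the sign turned in the mural-mixed comparison *Smad4* at -0.043, in the artery-like against vein-like comparison *Smad4* at -1.44. Leaving out a replicate gives a value with no test, and 32 of 74 such values moved by more than the SE. Of levels per class, 65 of 207 values under the alternatives moved by more than 1 SD of the replicates, and of shares 44 of 180, among them 19 of 36 after thinning. Scran's size factors gave no value for mural-mixed wells.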

Other observations

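Among the further pathway genes, 2 targets and a latency gene were picked after their values had been seen. *Fn1* (fibronectin) had a log2 fold change of 4.14 (SE 0.76) in artery-like against vein-like wells, at 4.38 and 3.83 within the replicates, with an edgeR adjusted p of 0.694. Its mean CPM per well, which weights each well equally, was 306 and 223 in artery-like wells against 12.5 and 628 in vein-like wells, so the direction in replicate 2 turned with the measure. *Ccn2* stood at -3.35 (SE 0.98, edgeR adjusted p = 0.760) in the same comparison, at -3.69 and -2.88. *Ltbp1*, which binds latent TGF-β to the matrix, stood at 3.97 (SE 0.91, edgeR adjusted p = 0.125) in mural-mixed wells, at 2.37 and 5.09.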
